A study of Mus musculus with 45 samples.

Results

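The genes described here are 9 regulators and surface genes of primordial germ cells, namely Prdm1, Prdm14, Tfap2c, Nanos3, Dnd1, Dppa3, Kit, Ifitm1 and Ifitm3, out of 35372 genes counted. They were chosen by symbol, each symbol was found once in every library, and all 9 passed the filter on low counts. They were followed in 45 strand-specific RNA-seq libraries of wild-type male E14tg2a embryonic stem cells (ESCs), a mouse line of 129/Ola origin, so that all values come from a single line. The cells were kept either in 2iL, a serum-free N2B27 medium with the GSK3 inhibitor CHIR99021, the MEK inhibitor PD0325901 and the cytokine LIF (23 libraries), or in SL, serum with LIF (22 libraries). They were then left to differentiate as embryoid bodies in serum (EB), as adherent cells in N2B27 with Fgf2 and ActivinA (FA, labelled EpiSC) or as adherent cells in N2B27 alone (N2B27, labelled Neural). Samples were taken on days 0, 1, 1.5, 2, 2.5, 3, 5 and 7. There was 1 library per starting medium, course and day, except that SL day 0 was a single library for all 3 courses, and day 5 of FA from 2iL was not analysed here.

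Primordial germ cells are the founders of eggs and sperm, and in the mouse they are set aside from the epiblast around the start of gastrulation in response to BMP and WNT signals. Prdm1 (also called Blimp1), Prdm14 and Tfap2c (AP-2 gamma) encode the transcription regulators that together specify them: PRDM1 represses the somatic programme, PRDM14 supports the return of pluripotency genes and loss of DNA methylation, and TFAP2C acts with both. Nanos3 and Dnd1 encode RNA-binding proteins that germ cells need to survive, Kit encodes the receptor of Kit ligand, Dppa3 (Stella) encodes a protein that guards DNA methylation in the oocyte and early embryo, and Ifitm1 and Ifitm3 (Fragilis) encode small membrane proteins of an interferon-induced family that mark early germ cells. Several of these genes are also expressed in naive ESCs, which resemble the preimplantation epiblast and are not germ cells.

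Libraries held 13093226 to 39804240 assigned reads (median 18222720), and the 8 EB libraries from 2iL were deeper (median 34490692) than the other 37 (median 17297450). Values are given as CPM, gene counts scaled to the same library total, in which 3 reads correspond to 0.0754 to 0.229 CPM. All 10 naive pluripotency markers were detected at day 0, with a summed level of 4410 to 4660 CPM in 2iL and 2750 CPM in SL. At day 0 the 10 visceral and primitive endoderm markers summed to 3.66 to 6.16 CPM in 2iL and to 439 CPM in SL, of which Cubn alone made up 274 CPM. By days 5 and 7 the naive sum was 70.5 to 327 CPM in all courses, and endoderm sums reached 1190 to 2840 CPM in N2B27. The labels do not say that libraries came from separate cultures, so that p-values here measure only the spread between these libraries, with courses and neighbouring days in the place of replicates. In bulk RNA, fewer cells expressing a gene and less RNA per cell cannot be told apart.

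In GRCm38, Prdm1 (ENSMUSG00000038151) lies on chromosome 10 from 44437177 to 44528501 on the minus strand, Prdm14 on chromosome 1 from 13113457 to 13127163 on the minus strand and Tfap2c on chromosome 2 from 172549593 to 172558622 on the plus strand. Nanos3 lies on chromosome 8 from 84173731 to 84185217 on the minus strand, where it hosts the microRNA genes Mir181c and Mir181d, which share 0 of its exon bases. Dppa3 lies on chromosome 6 from 122626410 to 122630272 and Kit on chromosome 5 from 75574916 to 75656722, both on the plus strand. Ifitm1 (chromosome 7, 140967221 to 140969825, plus strand) and Ifitm3 (chromosome 7, 141009586 to 141010770, minus strand) are 39760 bases apart. Dppa3, Dnd1, Ifitm1 and Ifitm3 have annotated near copies that match them at 91.0% identity or more over 145 to 959 bases. How reads that fit several places were counted is not given in the sources used here, so these 4 levels are uncertain to that extent.

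The RefSeq promoter table of GRCm38.p6 held entries for 5 of the 9 genes, Prdm1, Nanos3, Kit, Ifitm1 and Ifitm3. The 250 bases before each listed start were searched on both strands for 6 short motifs. The AP-2 motif GCCNNNGGC, which TFAP2C and its relatives bind, occurred in Nanos3 and Kit and in 13.7% of 32851 promoters of this length. The GC box GGGCGG occurred in Nanos3, where it overlaps the AP-2 match, in Kit and in Ifitm3, and in 32.7% of all promoters. The STAT motif TTCNNNGAA, the octamer ATGCAAAT, an interferon response motif and the T-box motif TCACACCT were in none of the 5 and in 7.02%, 1.6%, 2.98% and 1.12% of all promoters. The Prdm1 and Ifitm1 windows held none of the 6 motifs. Nanos3 and Kit are shown as the 2 windows with an AP-2 match, and the Ifitm pair because these neighbours later took different courses. Both Nanos3 and Kit fell from 2iL, as Tfap2c and most other members did. Over the 45 libraries the Spearman correlation with Tfap2c was 0.0223 for Nanos3 and 0.697 for Kit. Capitals mark motif matches, and the runs end where annotated exons begin. A match is a description of letters and was not tested as a binding site.
Nanos3, chr8:84176553-84176802, minus strand: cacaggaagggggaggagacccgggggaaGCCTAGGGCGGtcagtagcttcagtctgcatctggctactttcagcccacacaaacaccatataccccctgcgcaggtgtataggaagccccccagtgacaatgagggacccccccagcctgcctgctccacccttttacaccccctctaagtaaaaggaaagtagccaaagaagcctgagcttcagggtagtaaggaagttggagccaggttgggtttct
Kit, chr5:75574737-75574915, plus strand: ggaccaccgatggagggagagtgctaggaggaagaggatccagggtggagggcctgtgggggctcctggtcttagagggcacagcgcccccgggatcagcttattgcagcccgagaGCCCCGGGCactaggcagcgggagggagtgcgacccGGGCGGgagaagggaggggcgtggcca
Ifitm1, chr7:140967826-140968027, plus strand: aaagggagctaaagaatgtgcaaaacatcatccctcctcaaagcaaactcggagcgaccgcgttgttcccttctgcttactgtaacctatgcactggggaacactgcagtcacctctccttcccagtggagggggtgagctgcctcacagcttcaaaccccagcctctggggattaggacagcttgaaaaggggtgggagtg
Ifitm3, chr7:141010771-141010994, minus strand: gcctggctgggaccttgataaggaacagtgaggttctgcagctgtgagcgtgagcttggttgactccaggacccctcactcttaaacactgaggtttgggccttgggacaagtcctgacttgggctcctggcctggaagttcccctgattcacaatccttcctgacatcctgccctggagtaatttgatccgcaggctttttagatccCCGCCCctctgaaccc
Counted back from the listed start, the AP-2 match begins at -221 in Nanos3 (GCCTAGGGC) and at -134 in Kit (GCCCCGGGC). The GC boxes begin at -216 in Nanos3, -98 in Kit and -42 in Ifitm3 (CCGCCC). The listed start of Nanos3 lies inside the span of the gene given above, since the annotation also holds transcripts that begin further upstream.

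Undifferentiated cells in 2iL carried more RNA of most germ cell regulators than cells in SL. Of the 9 genes, 6 were higher in 2iL at day 0 and only Dnd1 was lower, while 36.0% of the 17107 genes tested were called in this comparison, 18.3% higher and 17.8% lower. The median log2 difference of the members was 1.88, against 0.01 over all genes. SL was represented by 1 library, so that its own spread is unknown and the spread in the test came from the other libraries. In a fit without course terms, Kit (adjusted p = 0.0824) and Tfap2c (0.443) were not called at day 0.

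Kit gave 438, 519.5 and 542 CPM in the 3 libraries in 2iL and 58.3 CPM in SL (95% Wilson interval 54.9 to 61.9, which covers counting error only, as do all intervals of this kind here). The difference was 9.24-fold (log2 3.21 ± 0.36 SE, adjusted p = 1.08e-07). Prdm14 gave 48.2, 49.0 and 50.9 CPM in 2iL and 13.3 CPM in SL (4.03-fold, adjusted p = 8.82e-06). The libraries in 2iL lay close together and above SL for both genes.

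Dppa3 varied most among the libraries in 2iL, with 10.8, 15.7 and 24.9 CPM, and was at 0.823 CPM (15 reads) in SL, a pooled ratio of 18.6 with a counting interval of 11.2 to 33.4 (adjusted p = 4.15e-05). Nanos3 was low in 2iL as well, at 2.20, 2.66 and 2.94 CPM, and a single read was found in SL. Its pooled ratio was 49.2 with a counting interval of 8.72 to 1950 (adjusted p = 2.92e-07). At day 0 Nanos3 thus exceeded 3 reads, 0.165 CPM in the SL library, in 2iL but not in SL.

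Ifitm3 gave 66.0, 69.8 and 70.9 CPM in 2iL and 20.2 CPM in SL (3.68-fold, adjusted p = 3.76e-05). Tfap2c gave 60.8, 62.2 and 63.6 CPM in 2iL and 30.8 CPM in SL (2.19-fold, adjusted p = 0.0386). The call for Tfap2c was lost without the EB library (adjusted p = 0.0626) or the N2B27 library of 2iL day 0 (0.0613) and with DESeq2's Wald test (0.0692). For Ifitm1, the other member of its family, the values were 62.2, 66.6 and 76.5 CPM against 35.2 CPM, a log2 difference of 1.07 with a 95% interval of -0.03 to 2.18 (adjusted p = 0.123).

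Dnd1 ran the other way, with 1.53, 2.05 and 2.88 CPM in 2iL and 6.53 CPM in SL (2.68-fold lower in 2iL, adjusted p = 0.00122). Prdm1 was within the range of 2iL, with 6.02, 7.32 and 11.9 CPM against 7.52 CPM in SL (log2 difference 0.24, 95% interval -0.65 to 1.13, adjusted p = 0.71). By the sums given above, the naive markers were lower and the endoderm markers higher in the SL library. Of the 10 naive markers, however, 1 was called higher in 2iL, 0 lower and 9 not called. Tfcp2l1 alone gave 1810 to 2020 CPM in 2iL and 623 CPM in SL. Of the 10 endoderm markers, 7 were called lower in 2iL, beside 17.8% of all genes. The part of either list in these differences was not tested.

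**Figure D1:**
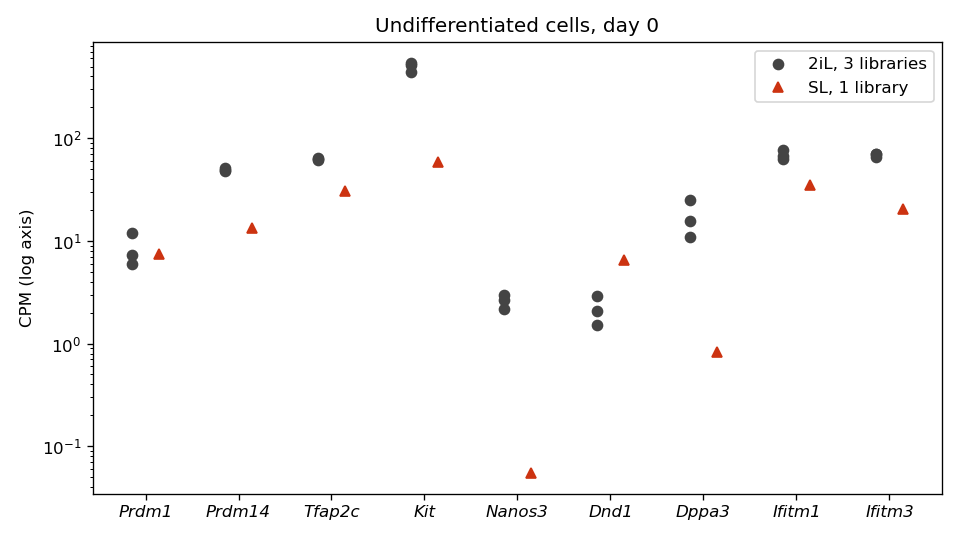
CPM of the 9 genes at day 0 on a log axis, with circles for the 3 libraries in 2iL and triangles for the single library in SL. Kit, Dppa3 and Nanos3 are the farthest apart between media, Prdm1 overlaps, and Dnd1 is the one gene with SL above 2iL.

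On a scale per length (RPKM, CPM per kilobase of exon), the order of levels in 2iL at day 0 began with Ifitm3 (102 ± 3.81 SD, n = 3), followed by Ifitm1 (62.5 ± 6.73) and Kit (56.1 ± 6.13), whose ranges overlapped. Prdm14 (19.3 ± 0.538), Dppa3 (19.2 ± 8.01) and Tfap2c (16.9 ± 0.381) formed a middle tier, in which Dppa3 overlapped both neighbours while Prdm14 and Tfap2c did not overlap. Nanos3 (2.81 ± 0.409) stood above Prdm1 (1.51 ± 0.555), and Dnd1 was lowest (0.894 ± 0.283), with an overlap between the last 2. In SL the order per length was Ifitm1 (32.1), Ifitm3 (29.9), Tfap2c (8.36), Kit (6.54), Prdm14 (5.18), Dnd1 (2.71), Prdm1 (1.35), Dppa3 (0.922) and Nanos3 (0.0594), from 1 library. At day 0 the specifying trio was thus unevenly represented, with Prdm1 RNA far below that of its partners in both media. Later this order did not hold. From 2iL, mean RPKM at days 2.5 and 3 was 1.83 for Prdm1, 0.92 for Tfap2c and 0.137 for Prdm14. At days 5 and 7 it was 1.17, 2.4 and 0.174 in the same order of genes.

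During the first day out of 2iL, 5 of the 9 genes fell and Dnd1 rose (38.9% of all genes were called, 18.4% higher and 20.5% lower). The members' median log2 change was -2.94, against 0.00 over all genes. Across days 1.5 and 2, 7 genes were lower than at day 0 and Dnd1 was still higher (54.6% of all genes called, 27% higher and 27.7% lower), with a median of -2.79 against 0.02. Only Prdm1 was called in neither comparison. From SL, 5 genes were lower at days 1.5 and 2 and none was higher (36.0% called, 16.8% higher and 19.3% lower), with a median of -0.84 against 0.02.

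**Figure D2:**
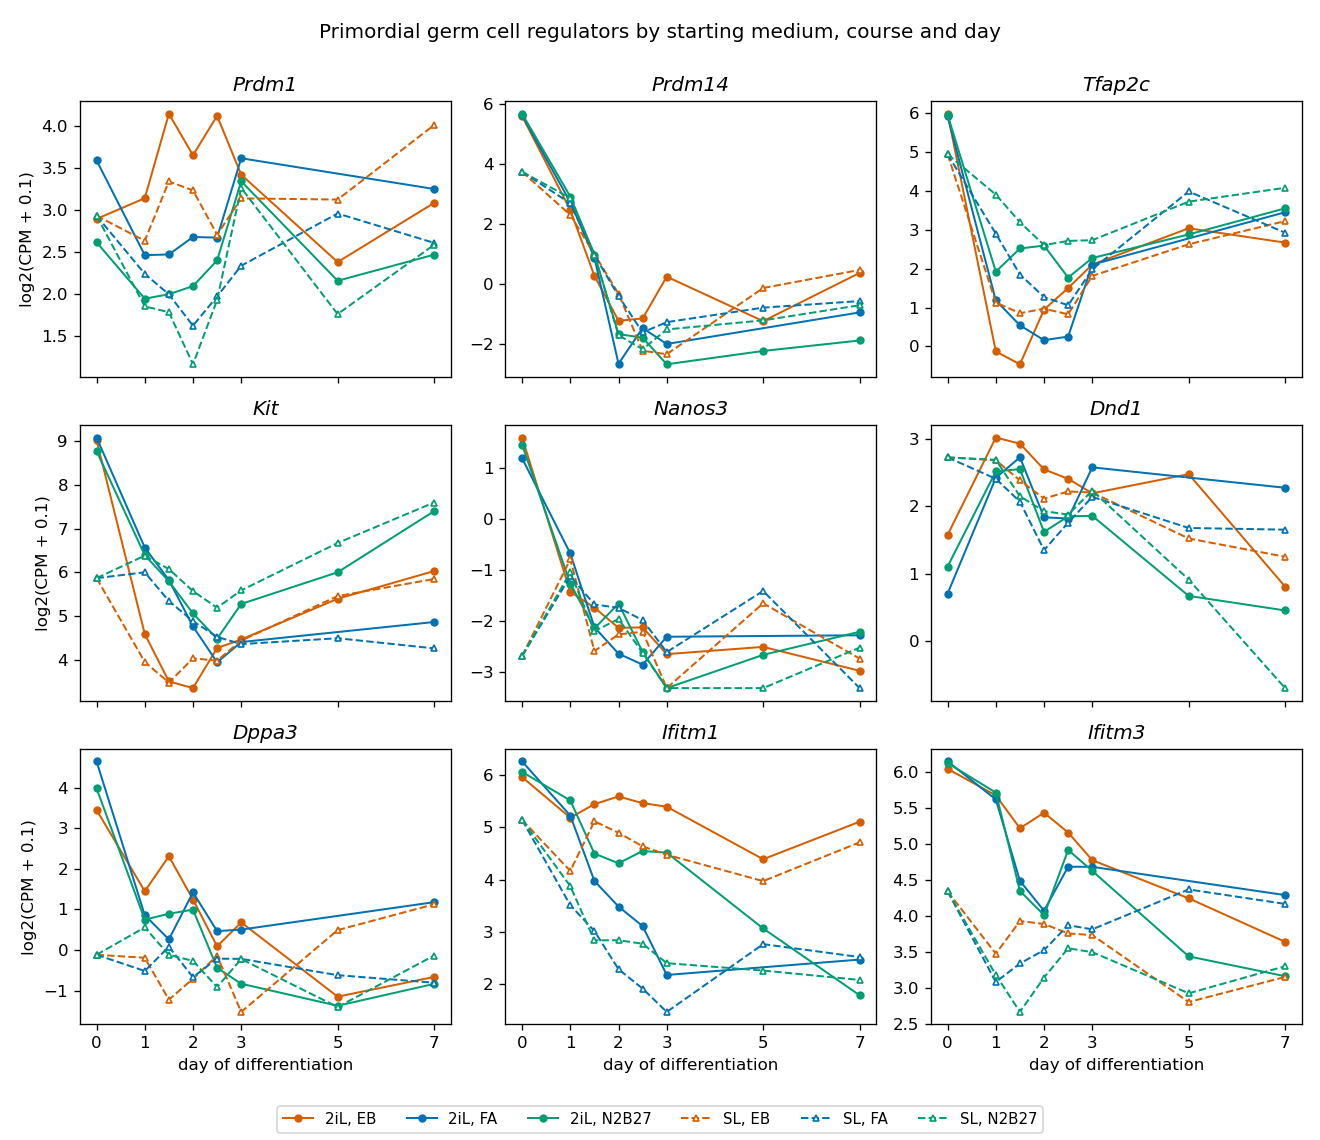
Level of each gene, as log2 of CPM plus 0.1, against day of differentiation. Solid lines with filled circles start from 2iL and dashed lines with open triangles from SL, coloured by course. The dashed lines share the SL library at day 0, and the solid FA line runs straight from day 3 to day 7. Prdm14 in every course, and Nanos3 in every course from 2iL, fall to low values, whereas Tfap2c falls and comes back in part. Kit from 2iL falls in every course and comes back in part in EB and N2B27. Kit from SL ends above day 0 in N2B27 and below it in FA.

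Prdm14 fell in all 3 courses and stayed low. From 48.2 to 50.9 CPM in 2iL it dropped to 5.44 CPM in EB, 6.52 in FA and 7.45 in N2B27 at day 1, and to 1.11, 1.75 and 1.88 CPM at day 1.5. At day 2 it was at 0.331, 0.0599 and 0.217 CPM. The mean was thus 13.1% of day 0 after 1 day, 3.2% after 1.5 days and 0.41% after 2 days, with the 3 courses close together until day 1.5. The change to days 1.5 and 2 was -6.32 ± 0.22 on the log2 scale (adjusted p = 1.46e-20).

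From SL, Prdm14 started at 13.3 CPM and was at 4.84, 6.36 and 7.19 CPM at day 1 in EB, FA and N2B27, which overlapped the libraries from 2iL. It was 1.86 to 1.91 CPM at day 1.5 and 0.209 to 0.701 CPM at day 2. The change to days 1.5 and 2 was -3.60 ± 0.28 (adjusted p = 5.45e-11). Between days 1 and 2 the log2 difference between origins was -0.44 (95% interval -0.88 to -0.0027, adjusted p = 0.101), called without the 2iL EB library (0.0393) or the SL N2B27 library (0.0271) of day 2.

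Tfap2c fell within a day and then returned in part. From 60.8 to 63.6 CPM in 2iL it was at 0.815 CPM in EB, 2.17 in FA and 3.70 in N2B27 at day 1, a mean of 3.59% of day 0. It then stayed between 0.628 and 5.95 CPM through day 2, was 4.21 to 4.75 CPM at day 3 and reached 6.28, 10.9 and 11.7 CPM at day 7. The log2 change was -5.13 ± 0.37 to day 1 (adjusted p = 1.15e-11), and days 5 and 7 were 3.64-fold above days 1.5 and 2 (log2 1.86 ± 0.27, adjusted p = 5.49e-07).

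From SL, Tfap2c went from 30.8 CPM to 2.09 CPM in EB, 7.38 in FA and 14.9 in N2B27 at day 1, so that the order of courses was as from 2iL. It was 1.71, 3.51 and 9.09 CPM at day 1.5, and 9.27, 7.51 and 16.9 CPM at day 7. Days 1.5 and 2 were below day 0 by a log2 change of -3.10 ± 0.35 (adjusted p = 1.10e-07), and days 5 and 7 were 3.08-fold above days 1.5 and 2 (adjusted p = 1.79e-06).

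Prdm1, the third specifying gene, showed no common trend from day 0. In EB from 2iL the 8 libraries, in order of day, gave 7.32, 8.70, 17.5, 12.4, 17.2, 10.6, 5.10 and 8.36 CPM. In N2B27 from 2iL it moved from 6.02 to 3.75, 3.89, 4.17, 5.17, 10.0, 4.36 and 5.43 CPM over the same days. The highest value of all 45 libraries was the EB library of day 1.5, and the change over all courses to days 1.5 and 2 was -0.17 (95% interval -0.71 to 0.36, adjusted p = 0.605) from 2iL and -0.63 (-1.47 to 0.21, adjusted p = 0.24) from SL. From 2iL to days 5 and 7 it was -0.60 (adjusted p = 0.0579), which became a call without the FA library of day 7 (0.0411), the N2B27 library of day 0 (0.0362) or that of day 5 (0.0226).

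Kit, the receptor, carried the largest number of reads among the members at day 0. From 438 to 542 CPM in 2iL it was at 24.0 CPM in EB, 94.6 in FA and 83.9 in N2B27 at day 1. It reached its lowest value of all libraries, 10.1 CPM, in EB at day 2, and was 27.02 and 33.2 CPM in FA and N2B27 that day. The change to days 1.5 and 2 was 18.7-fold downward (log2 -4.22 ± 0.18, adjusted p = 3.42e-17). From SL, which started at 58.3 CPM, Kit was 15.4, 63.9 and 83.3 CPM at day 1 in EB, FA and N2B27, so that EB was below day 0 and the adherent courses were not. The change to days 1.5 and 2 was 1.81-fold downward (log2 -0.86 ± 0.26, adjusted p = 0.0114, but 0.707 without course terms).

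Among the RNA-binding factors, Nanos3 fell from 2.20 to 2.94 CPM in 2iL to 0.272, 0.527 and 0.316 CPM at day 1 (EB, FA, N2B27), that is from 189 reads to 24. From day 1.5 on it was at or below 0.217 CPM in every library from 2iL. The log2 change to day 1 was -2.94 ± 0.31 (adjusted p = 9.41e-10). From SL it was 0.478, 0.360 and 0.384 CPM at day 1 (21 reads), above the single read at day 0, and at most 0.276 CPM thereafter. In all, 5 of 45 libraries had no read and 28 had 3 reads or fewer, so that no course difference was detectable at this depth after day 1.

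Dnd1 lies on chromosome 18 from 36763671 to 36766214 on the minus strand and shares 140 exon bases with Wdr55 on the other strand, which strand-specific counting keeps apart. Unlike the other members, it rose on leaving 2iL. From 1.53 to 2.88 CPM in 2iL it was 8.03, 5.27 and 5.64 CPM at day 1 and 7.54, 6.54 and 5.77 CPM at day 1.5 in EB, FA and N2B27. Every library of days 1 and 1.5 was above every library of day 0, and the change was 2.70-fold at day 1 (log2 1.43 ± 0.24, adjusted p = 2.70e-05) and 2.30-fold at days 1.5 and 2 (adjusted p = 4.32e-05). From SL, which began at 6.53 CPM, Dnd1 was 5.22 to 6.37 CPM at day 1 and 2.45 to 4.24 CPM at day 2 (log2 change to days 1.5 and 2 -0.65, 95% interval -1.26 to -0.04, adjusted p = 0.0877).

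Dppa3 fell from 10.8, 15.7 and 24.9 CPM in 2iL to 2.63, 1.58 and 1.71 CPM at day 1 in EB, N2B27 and FA, a mean of 11.5% of day 0 (log2 -3.13 ± 0.40, adjusted p = 4.32e-07). It was 4.85 CPM in EB at day 1.5 and 1.10 and 1.76 CPM in FA and N2B27, and by day 5 it was 0.352 CPM in EB and 0.287 in N2B27. In cells from SL it was low from the start, with 0.248 to 2.08 CPM in all 22 libraries. The change from SL day 0 to days 1.5 and 2 was -0.30 on the log2 scale with an interval of -2.20 to 1.61 (adjusted p = 0.84); an interval this wide includes changes of either sign.

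From 2iL, Ifitm1 and Ifitm3 declined more slowly than the other members that fell. Ifitm3 kept 73.9% of its day 0 level at day 1 from 2iL (49.2 to 52.5 CPM), and its log2 change was -0.45 (adjusted p = 0.0735), a call without the N2B27 library of day 1 (0.0161). At days 1.5 and 2 it was lower (2.77-fold, adjusted p = 1.68e-08). Ifitm1 kept 58% of its day 0 level at day 1 (36.2 to 45.5 CPM, log2 change -0.70, adjusted p = 0.128) and was 2.87-fold lower at days 1.5 and 2 (adjusted p = 1.06e-04). From SL they were not the slower ones. At day 1 Ifitm1 was at 41.4% and Ifitm3 at 46.9% of the single day 0 library, beside 26.4% for Tfap2c, 46.2% for Prdm14 and 93% for Kit. Both were lower at days 1.5 and 2 from SL, Ifitm1 by 2.72-fold (adjusted p = 0.0124) and Ifitm3 by 1.79-fold (adjusted p = 0.0137). Without course terms these calls were lost for Ifitm1 from 2iL (0.134) and from SL (0.499) and for Ifitm3 from SL (0.226).

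The change on differentiation differed by starting medium for most of the germ cell regulators. This difference contains the gap between media at day 0, so it is not a result separate from the day 0 comparison. For Kit the log2 gap was 3.21 at day 0 and 0.03 at days 1 to 2, and for Prdm14 2.01 and -0.44. Dppa3 began in SL at 15 reads, so that a fall from there is hard to measure. The difference between media in the change from day 0 to days 1.5 and 2, tested as an interaction, was called for 6 of 9 genes, while 22.4% of all genes were called (11.6% higher and 10.8% lower). The change was more negative from 2iL for Kit (log2 difference -3.37 ± 0.38, adjusted p = 3.93e-07), Prdm14 (-2.72 ± 0.43, adjusted p = 2.82e-05), Dppa3 (-2.49 ± 0.91, adjusted p = 0.0490) and Tfap2c (-1.70 ± 0.51, adjusted p = 0.0163). For Nanos3 the fitted difference was -5.40 ± 1.05 (adjusted p = 2.33e-04), but its SL day 0 value was 1 read, below the floor of 3 reads, and its change from SL was not called (log2 1.34, adjusted p = 0.433), so that the size of this difference is uncertain. For Dnd1 the difference was 1.85 ± 0.37 (adjusted p = 5.81e-04), a rise from 2iL beside a log2 change of -0.65 from SL. Without course terms Kit (adjusted p = 0.142), Dppa3 (0.0974) and Tfap2c (0.406) were not called. Each of these tests rests on 1 library at SL day 0, and the Dppa3 call was lost without any 1 of 10 of the 15 libraries that could be left out (adjusted p = 0.0604 to 0.0983), namely FA and N2B27 of days 1.5 and 2 from SL, N2B27 of days 0, 1.5 and 2, FA of days 0 and 1.5 and EB of day 2 from 2iL.

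**Figure D3:**
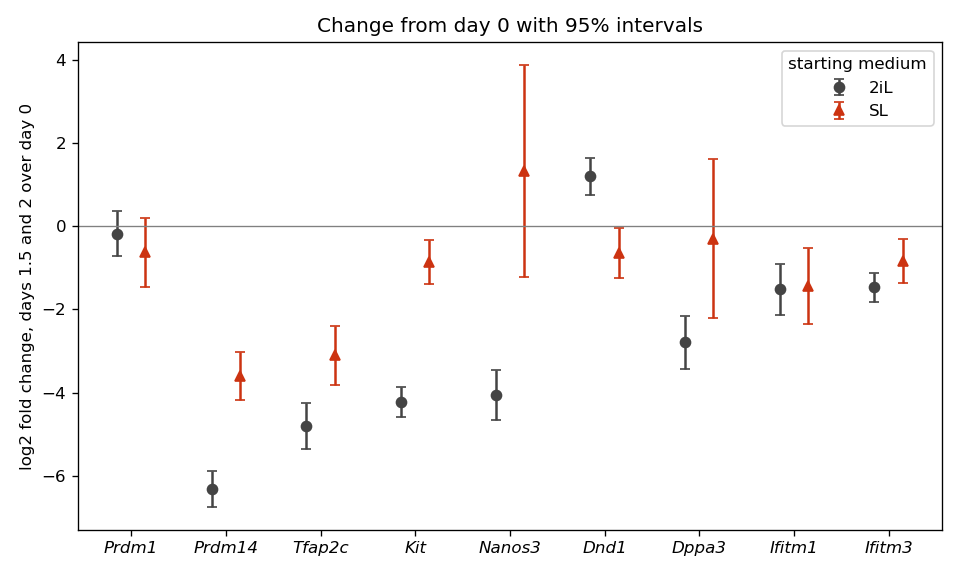
Log2 fold change of each gene from day 0 to days 1.5 and 2, with 95% intervals, for cells from 2iL (circles) and from SL (triangles). Kit, Nanos3, Prdm14, Dppa3 and Tfap2c lie lower for 2iL, and Dnd1 is above 0 for 2iL alone.

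Between days 1 and 2, 4 genes were higher and 1 lower from 2iL than from SL, a share near that of all genes (41.5% called, 21.3% higher and 20.1% lower). Ifitm3 was called with no overlap between origins. Its 9 libraries from 2iL ranged from 16.1 to 52.5 CPM and its 9 from SL from 6.27 to 15.2 CPM (3.15-fold, adjusted p = 2.29e-11). Dppa3 was 3.20-fold higher (adjusted p = 1.85e-04), with 1.10 to 4.85 CPM from 2iL and 0.329 to 1.37 CPM from SL, and Ifitm1 was 2.28-fold higher (adjusted p = 8.77e-05).

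Prdm1 was 1.47-fold higher from 2iL in the same days (adjusted p = 0.0192), a call lost without the EB library of day 1.5 from 2iL (0.0784) or the EB library of day 1 from SL (0.0652). Tfap2c was 1.98-fold lower (adjusted p = 9.13e-04), with 0.628 to 5.95 CPM against 1.71 to 14.9 CPM. Kit differed between media at day 0, and in these days its log2 difference was 0.03 with a 95% interval of -0.22 to 0.28 (adjusted p = 0.871). Dnd1 was at 0.31 (adjusted p = 0.0628), called without the N2B27 library of day 2 from 2iL (0.0432) or from SL (0.0494). Without course terms, the calls for Prdm1 (0.174), Tfap2c (0.0949) and Ifitm1 (0.121) were lost.

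At days 5 and 7, edgeR called 0 of 9 genes between origins, 3 had an unadjusted p under 0.05, and DESeq2 called 1, Ifitm3 (5.86% of all genes called by edgeR, 2.30% higher and 3.56% lower). The largest log2 differences were -0.92 for Prdm14 (95% interval -1.68 to -0.16), -0.72 for Dppa3 (-1.82 to 0.39), 0.54 for Dnd1 (0.11 to 0.97) and 0.51 for Ifitm3 (0.17 to 0.85). Ifitm3 became a call without the N2B27 library of day 5 from 2iL (adjusted p = 0.045) or the FA library of day 5 from SL (0.0407), and Dnd1 without the EB library of day 7 from 2iL (0.039) or the N2B27 library of day 5 from SL (0.0382). For Kit the interval was -0.49 to 0.17, whereas that of Nanos3 ran from -2.29 to 2.12.

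The course of differentiation separated the receptor Kit from the Ifitm genes in the early days. Between days 1 and 2, EB had higher Prdm1, Ifitm1, Ifitm3 and Dnd1 and lower Kit and Tfap2c than FA (25.6% of all genes called, 13.1% higher and 12.5% lower), and higher Prdm1, Ifitm1 and Ifitm3 and lower Kit and Tfap2c than N2B27 (32.0% called, 16% in each direction). The adherent courses, which share N2B27 medium, differed in Tfap2c among the 9 genes (1.88% called, 0.941% in each direction).

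Kit ranged in the 6 EB libraries from 10.1 to 24.0 CPM (median 13.3), in FA from 27.02 to 94.6 CPM (median 48.5) and in N2B27 from 33.2 to 83.9 CPM (median 61.4). All EB libraries were below all adherent ones. EB was 3.29-fold below FA (log2 -1.72 ± 0.16, adjusted p = 1.51e-08) and 4.45-fold below N2B27 (log2 -2.15 ± 0.16, adjusted p = 1.30e-10), and the log2 difference between FA and N2B27 was -0.43 (95% interval -0.74 to -0.13, adjusted p = 0.141).

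Tfap2c was ordered by course. It ranged from 0.628 to 2.09 CPM in EB (median 1.77), from 1.02 to 7.38 CPM in FA (median 2.25) and from 3.70 to 14.9 CPM in N2B27 (median 5.98). N2B27 lay above all EB libraries (5.06-fold, adjusted p = 2.40e-07) and overlapped FA (2.87-fold, adjusted p = 0.00445). The FA against N2B27 call was not found in the libraries from SL alone (log2 -1.25, adjusted p = 0.268). EB was 1.77-fold below FA (adjusted p = 0.0472), and this call was lost without any 1 of 9 libraries, namely each EB and FA library of days 1 and 1.5 and the SL FA library of day 2 (adjusted p = 0.0534 to 0.183).

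Prdm1 was highest in EB, with 6.10 to 17.5 CPM (median 9.64), against 2.98 to 6.29 CPM in FA (median 5.01) and 2.14 to 4.17 CPM in N2B27 (median 3.63). EB and N2B27 did not overlap (2.81-fold, adjusted p = 1.76e-05), and EB exceeded FA by 2.25-fold (adjusted p = 3.62e-04) with an overlap of the lowest EB and highest FA library. Ifitm1 ranged from 17.8 to 48.0 CPM in EB (median 35.4), from 4.77 to 37.2 CPM in FA (median 11.2) and from 7.04 to 45.5 CPM in N2B27 (median 17.1). EB was 2.93-fold above FA (adjusted p = 1.62e-04) and 2.02-fold above N2B27 (adjusted p = 0.00484), the latter not called within the libraries from 2iL alone (log2 0.57, adjusted p = 0.25). The groups overlapped because FA and N2B27 from 2iL at day 1 were still at 37.2 and 45.5 CPM.

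Ifitm3 was 1.55-fold higher in EB than in FA (adjusted p = 0.00252) and 1.57-fold higher than in N2B27 (adjusted p = 0.00138). Within the libraries from SL the difference from FA was not called (log2 0.45, adjusted p = 0.0728). Dnd1 was 1.42-fold higher in EB than in FA (adjusted p = 0.0230), a call lost in the libraries of either medium alone (0.131 from 2iL and 0.16 from SL) and without the day 2 libraries of EB (0.0789) or FA (0.0539) from 2iL or of FA from SL (0.0629).

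**Figure D4:**
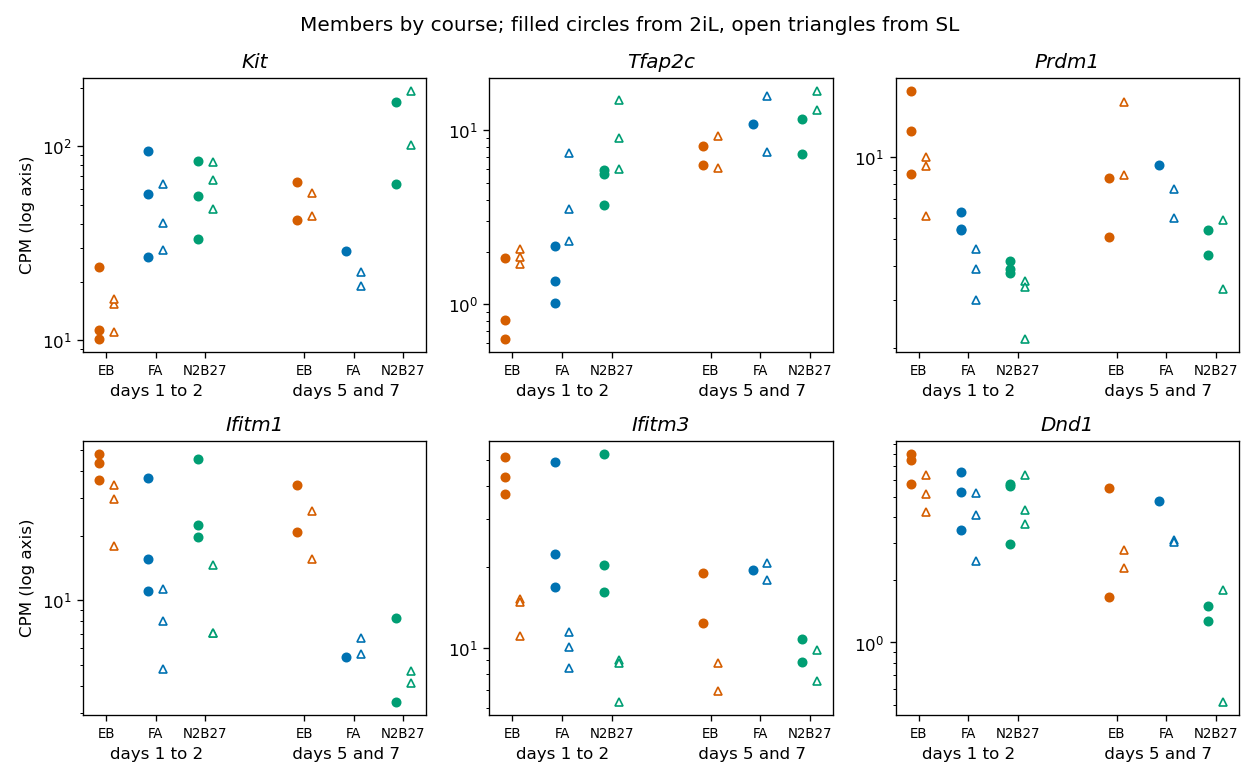
CPM on a log axis for 6 genes in EB, FA and N2B27, at days 1 to 2 on the left and at days 5 and 7 on the right of each panel. Filled circles are libraries from 2iL and open triangles from SL. Kit is lowest in EB early and highest in N2B27 late, Ifitm1 stays high in EB, and Dnd1 is lowest in N2B27 late.

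At days 5 and 7, compared with day 0, 7 genes were lower from 2iL (69.8% of all genes called, 34.4% higher and 35.4% lower) and 5 from SL (46.2% called, 21.7% higher and 24.4% lower), and none was higher. Prdm1 and Dnd1 were the ones not called from 2iL. From SL, Prdm14, Tfap2c, Dnd1, Ifitm1 and Ifitm3 were lower, whereas the log2 change of Kit averaged over courses was -0.13 (95% interval -0.70 to 0.43, adjusted p = 0.725). That average covers courses on either side of the 58.3 CPM of SL day 0, with FA libraries below it and N2B27 libraries above it. Without course terms, Tfap2c (0.157), Ifitm1 (0.197) and Ifitm3 (0.202) were not called from SL.

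Kit rose again in N2B27 and EB, most in N2B27. There it reached 63.9 CPM at day 5 and 169 CPM at day 7 from 2iL and 102 and 193 CPM from SL. In EB it was 42.0 and 65.2 CPM from 2iL and 43.8 and 57.5 CPM from SL. In FA it was 29.0 CPM at day 7 from 2iL and 22.4 and 19.1 CPM from SL. Kit in FA had been 27 to 94.6 CPM at days 1 to 2 from 2iL and 29.4 to 63.9 CPM from SL. It thus did not rise in FA from SL. The 3 courses hardly overlapped, the highest EB library lying just above the lowest N2B27 library. N2B27 was 6.25-fold above FA (log2 -2.64 ± 0.22 for FA against N2B27, adjusted p = 5.26e-10) and 2.53-fold above EB (adjusted p = 1.19e-06), and EB was 2.47-fold above FA (adjusted p = 6.79e-05), so that EB and FA had changed places since the early days.

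Kit is also expressed in blood progenitors and in other somatic lineages. Of the 10 blood and endothelial markers, 3 were lower and 4 higher in EB than in N2B27 at these days (47.2% of all genes called, 24.0% higher and 23.3% lower). Their summed level was 31.5 to 68.9 CPM in N2B27, 20.1 to 219 CPM in EB and 20.5 to 47.3 CPM in FA, and the embryonic globins Hbb-bh1 and Hba-x stayed at or below 3.81 and 1.56 CPM. Neural markers summed to 460 to 748 CPM in N2B27, 109 to 281 CPM in EB and 188 to 468 CPM in FA, and endoderm markers to 1190 to 2840, 146 to 1690 and 120 to 379 CPM. The part of these cells in the Kit values was not tested.

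Ifitm1 stayed up in EB, at 20.8 and 34.3 CPM from 2iL and 15.6 and 26.1 CPM from SL at days 5 and 7. It was 5.43 to 6.69 CPM in FA and 3.35 to 8.26 CPM in N2B27. EB did not overlap with the others and was 3.79-fold above FA (log2 1.92 ± 0.40, adjusted p = 8.95e-04) and 4.48-fold above N2B27 (log2 2.16 ± 0.36, adjusted p = 2.03e-05). Primitive streak and mesoderm markers summed to 179 to 753 CPM in EB, 25.2 to 89.7 CPM in FA and 6.94 to 14.7 CPM in N2B27 in the same libraries, and their part in the Ifitm1 difference was not tested.

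Ifitm3 took another pattern, with 17.9 to 20.6 CPM in FA, 6.91 to 18.9 CPM in EB and 7.53 to 10.8 CPM in N2B27. FA was 1.99-fold above EB (adjusted p = 9.13e-04) and 2.30-fold above N2B27 (adjusted p = 5.01e-05). The difference from EB was not called within the libraries from 2iL alone (log2 -0.51, adjusted p = 0.34), where FA had 1 library. At these days, 3 genes were higher and 1 lower in EB than in FA (21.9% of all genes called, 10.0% higher and 11.9% lower), 4 higher and 2 lower in EB than in N2B27 (47.2% called, 24.0% higher and 23.3% lower) and, near the share of all genes, 2 higher and 1 lower in FA than in N2B27 (37.0% called, 19.6% higher and 17.4% lower).

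Dnd1 fell in N2B27, to 1.49 and 1.27 CPM from 2iL and 1.78 and 0.516 CPM from SL. It was 4.75 CPM in FA at day 7 from 2iL and 3.10 and 3.05 CPM in FA from SL, above every N2B27 library (3.39-fold, adjusted p = 2.62e-05). EB, with 1.65 to 5.48 CPM, was 2.13-fold above N2B27 (adjusted p = 0.00118), a call lost without the EB (0.0512) or the N2B27 (0.0505) library of day 5 from 2iL. Between EB and FA the log2 difference was -0.68 (adjusted p = 0.0571), a call without the 2iL EB library of day 5 (0.0254), the SL EB library of day 7 (0.042) or the SL FA library of day 5 (0.0175).

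Of the specifying genes, Prdm14 was 0.327 and 1.198 CPM in EB from 2iL and 0.816 and 1.29 CPM from SL, against 0.115 to 0.516 CPM in N2B27 (3.08-fold, adjusted p = 0.00312, but 0.0836 in the libraries from SL alone). Its difference between EB and FA (2.24-fold, adjusted p = 0.0442) was lost without any 1 of the 7 libraries but the SL EB library of day 5 (adjusted p = 0.0513 to 0.254). These levels were 0.447% to 1.21% of day 0 from 2iL and 4.1% to 5.98% from SL, in 15 to 56 reads per day.

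Prdm1 was 5.10 to 15.96 CPM in EB and 3.29 to 5.89 CPM in N2B27 (1.79-fold, adjusted p = 0.0133), a call lost without the SL EB library of day 7 (0.138), which held its highest value, or the SL N2B27 library of day 5 (0.0728). Tfap2c was 6.09 to 9.27 CPM in EB and 7.28 to 16.9 CPM in N2B27 (1.68-fold lower in EB, adjusted p = 0.0244), a call lost without the day 7 libraries of EB (0.0952) or N2B27 (0.0691) from 2iL, the SL EB library of day 5 (0.141) or the SL N2B27 library of day 7 (0.133). Dppa3 differed between EB and N2B27 by 2-fold (log2 95% interval -0.33 to 2.33, adjusted p = 0.21), called within the libraries from SL alone (1.60, adjusted p = 0.0287) and without the 2iL EB library of day 7 (0.0243). Nanos3 had 2 to 8 reads per day over all libraries of a medium, too few for a comparison.

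Between days 1.5 and 2 and days 5 and 7, Tfap2c and Kit were the members that rose from 2iL, and 5 fell (70.6% of all genes called, 35.9% higher and 34.7% lower). From SL, 3 rose and 3 fell (66.8% called, 33.4% in each direction). From either medium the number of members called was near the share of all genes. Averaged over courses, Kit rose 1.66-fold from 2iL (adjusted p = 2.29e-04) and 1.65-fold from SL (adjusted p = 1.45e-04), although not in FA from SL. Dnd1 fell 1.89-fold from 2iL (adjusted p = 8.70e-05) and 2.04-fold from SL (adjusted p = 3.97e-05). Without course terms the rise of Kit was not called (0.118 from 2iL and 0.145 from SL). From 2iL, Dppa3 fell 5.03-fold (adjusted p = 5.27e-05), Ifitm1 2.56-fold (adjusted p = 2.85e-04, but 0.179 without course terms) and Ifitm3 1.72-fold (adjusted p = 9.03e-05). The Prdm14 falls were 2.18-fold from 2iL (adjusted p = 0.0144) and 1.89-fold from SL (adjusted p = 0.0106). Both were lost without the EB libraries of day 2 (0.247 and 0.13) or day 5 (0.181 and 0.0601), and without course terms (0.231 and 0.118). Their starting span includes day 1.5, when Prdm14 was still declining (means 1.58 CPM from 2iL and 1.88 CPM from SL). At days 2, 5 and 7 the means were 0.203, 0.221 and 0.598 CPM from 2iL. From SL they were 0.524, 0.545 and 0.794 CPM, so that from either medium days 5 and 7 were not below day 2.

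From SL, Prdm1 rose 1.51-fold over this span (adjusted p = 0.0269), a call lost without the EB library of day 7 (0.14) or the FA libraries of day 1.5 (0.0568), day 2 (0.0559) or day 5 (0.0823), or without course terms (0.316). From 2iL its log2 change was -0.42 (adjusted p = 0.12), called without the N2B27 library of day 5 (0.0453). Ifitm1 fell 1.58-fold from SL (adjusted p = 0.0487), which was lost without any 1 of 8 of 12 libraries (adjusted p = 0.0568 to 0.256), namely the 4 EB libraries, FA of days 1.5 and 7 and N2B27 of days 5 and 7, and also without course terms (0.411). For Nanos3 from 2iL the log2 change was -1.15 (adjusted p = 0.077), called without the FA library of day 2 (0.0462) or the N2B27 library of day 7 (0.032).

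Other genes of the germ cell pathway did not share one direction. Of 16 signals and partners of germ cell induction, 7 were higher and 5 lower at days 1.5 and 2 than at day 0 from 2iL (54.6% of all genes called), with a median log2 change of 0.25 against 0.02 over all genes. Lin28a, an RNA-binding protein needed for germ cell specification, rose by 4.48 ± 0.22 (adjusted p = 1.42e-15), and Otx2, a transcription factor that restrains germ cell fate, rose by 3.51 ± 0.42 (adjusted p = 6.30e-08). T (Brachyury) was lower (log2 -2.98 ± 0.50, adjusted p = 1.10e-05). Its highest value of all libraries came later, 370 CPM in EB from 2iL at day 5, against 1.53 to 4.88 CPM in 2iL at day 0. By days 5 and 7, 12 of the 16 were higher and 2 lower (69.8% of all genes called). Among those higher were Bmp2 (5.38 ± 0.65, adjusted p = 1.66e-08) and Wnt3 (3.92 ± 0.57, adjusted p = 4.71e-07), both ligands of the inducing pathways.

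Of 11 genes of germ cell migration, survival and surface, 10 were tested. From 2iL, 5 were higher and 4 lower at days 1.5 and 2 (54.6% of all genes called), and 6 higher and 4 lower at days 5 and 7 (69.8% called, median log2 change 1.93 against -0.02). Kitl, the ligand of KIT, rose by 2.58 ± 0.47 at days 1.5 and 2 (adjusted p = 3.99e-05) while its receptor fell. Cxcl12, a chemokine that guides germ cells, rose by 6.19 ± 0.79 (adjusted p = 1.29e-07), and its receptor Cxcr4 was 3.43 ± 0.54 above day 0 at days 5 and 7 (adjusted p = 2.59e-06). Alpl, the alkaline phosphatase used to stain germ cells and ESCs, fell by 3.68 on the log2 scale to days 5 and 7 (adjusted p = 6.21e-15), and Ifitm2, a relative of the 2 Ifitm members, fell by 1.32 (adjusted p = 3.85e-10).

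Later germ cell genes include genes of meiosis and genes that silence transposons. Of 14, 7 were higher and 3 lower at days 1.5 and 2 than at day 0 from 2iL (median 0.94, with 54.6% of all genes called), and 3 were higher and 8 lower at days 5 and 7 (median -1.19, with 69.8% called). From SL, 1 was higher and 7 lower at days 1.5 and 2 (36.0% of all genes called), and 13 were lower at days 5 and 7 (46.2% called). At day 0, 8 of the 14 were lower in 2iL than in SL and 2 were higher (36.0% called), with Mael, a piRNA factor, at -4.48 ± 0.30 (adjusted p = 4.76e-11). Dazl, an RNA-binding protein of germ cells, fell by 6.73 on the log2 scale from 2iL to days 5 and 7 (adjusted p = 5.51e-18). Summed over the 14 genes, levels were 126 to 213 CPM in 2iL at day 0, 110 to 237 CPM at days 1 to 2 from 2iL and 9.82 to 33.6 CPM at days 5 and 7 from 2iL. In SL the sum was 298 CPM at day 0, in 1 library. From SL it was 143 to 259 CPM at days 1 to 2 and 23.6 to 91.1 CPM at days 5 and 7.

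Over the 45 libraries, the members were loosely related in rank. Tfap2c and Kit had a Spearman correlation of 0.697, Ifitm1 and Ifitm3 of 0.633 and Prdm14 and Nanos3 of 0.577, while Dnd1 ran opposite to Tfap2c (-0.441) and to Kit (-0.365). Prdm1 and Prdm14 were unrelated in rank (0.0113). These values describe libraries that share cells, days and the drop from day 0, and carry no test. Among 13277 other genes with at least 5 CPM in a library, the closest in rank were Tmem181b-ps (0.894) and Wdr91 (0.871) for Kit, Tead1 (0.854) and Letmd1 (0.845) for Tfap2c, Il17rc (0.85) and Acss1 (0.837) for Ifitm3, Zfp607 (0.848) and Rdm1 (0.841) for Ifitm1, Sox15 (0.844) and Mgmt (0.835) for Prdm14, Adam23 (0.811) and Zfp518a (0.794) for Dnd1, Iars2 (0.804) and Rp2h (0.79) for Prdm1, Trp53 (0.771) and Ppcs (0.743) for Nanos3 and Acpp (0.741) and Aox3 (0.731) for Dppa3.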

How the data were processed

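The authors trimmed adaptors with TrimGalore, mapped reads to GRCm38 with TopHat2 (1 mismatch, guided by Ensembl release 82) and counted reads per gene and strand with featureCounts. The deposited values are raw counts, without normalization. Of these rows, 435 without a gene symbol held at most 0.0014% of counts. They stayed in the library totals and in the counts given to the fit, and were left out of the search for genes closest in rank. CPM was taken over the library total. Gene positions came from GENCODE M21, in which 34599 of 35372 identifiers were found. Near copies were searched with BLAST 2.17.0.

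All 45 libraries were fitted together in edgeR 4.0.16 (R 4.3.3) with TMM factors, filterByExpr and the quasi-likelihood test. The fit had 16 terms for medium and day and terms for course within 3 windows (days 1 to 2, 2.5 and 3, 5 and 7). P-values were adjusted by Benjamini and Hochberg over 17107 genes, with a threshold of 0.05, for 17 comparisons. Of a span such as days 5 and 7, the log2 values of its days were averaged. Errors are SE unless marked SD. The authors name DESeq2 but state no design, so this design was chosen here. Alternatives were DESeq2 1.42.0, RLE factors, no filter, other course terms, each medium alone and each library left out. The fit was tested on simulated data. Of 183 pairs of libraries, none agreed within counting noise (variance ratio at least 8.52).

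The members and gene lists were chosen with earlier results of these data known. Named besides all 9 members are, from each list, at most 3 genes per comparison and direction with the largest called change, and for each member the 2 genes closest in rank.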

Additional observations from a re-analysis of the deposited data

Results flagged for a closer look

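Of the 9 members, 6 changed differently from day 0 to days 1.5 and 2 by starting medium, in a test of the difference itself (edgeR's quasi-likelihood test, 2iL minus SL, log2). The values were -5.40 for Nanos3 (against 1 read at SL day 0), -3.37 for Kit, -2.72 for Prdm14, -2.49 for Dppa3, -1.70 for Tfap2c and 1.85 for Dnd1. Each value contains the difference between media at day 0 and is not separate from it. All share the single library of SL at day 0. That library also held 439 CPM of visceral and primitive endoderm markers against 3.66 to 6.16 CPM in 2iL, and the part of these in the differences was not tested. No group had 4 or more libraries, so single libraries were not tested for standing apart.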

How the results depend on the processing

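Of 87 calls on the members, 54 held under every alternative run and 33 were lost under at least 1. None of 2183 recomputed values turned a call around, and 79 values changed sign without being called. DESeq2 ended 3 calls, RLE factors 2 and no filter on low counts 4. In comparisons of courses, 2iL alone ended 7 and SL alone 6. In comparisons of days, with 1 course term, 2iL alone ended 1 and SL alone 6. Leaving out single libraries ended 13.

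The courses stood as a replicate block, since libraries of the same course and window deviated together (mean r = 0.518 over 78 pairs, 0.0213 to 0.875). Courses are also treatments, compared as such above, so that this r holds their effects too. Pairs of other courses had a mean r of -0.247 over 156 pairs. That value carries no support, because deviations were taken from the mean of each medium and day, which by itself brings it below 0. The labels do not say how cultures were shared among libraries. Without the replicate block 22 calls were lost, and the members called fell to 2 for days 1.5 and 2 from SL, 2 for days 5 and 7 from SL, 2 between those spans, 2 between origins at days 1 to 2 and 3 for the difference between media. Genes called fell from 6165 to 3178 between media at day 0, from 6653 to 3907 at day 1 from 2iL, from 6166 to 3177 and from 7899 to 4648 at days 1.5 and 2 and at days 5 and 7 from SL, from 7095 to 4234 and from 1003 to 115 between origins, and from 3838 to 1401 for the difference. The cause was not tested. With SL alone and 1 course term as replicate block, 3 members were called at days 1.5 and 2 and 3 from there to days 5 and 7.

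Between origins at days 5 and 7, DESeq2 called 1 member, and leaving out libraries gave 0 to 1. For EB against FA, 2iL alone gave 2 members at days 5 and 7 and SL alone 3 at days 1 to 2, while for FA against N2B27 at days 1 to 2 SL alone gave 0. These fits hold fewer libraries. Genes called between FA and N2B27 at days 1 to 2 numbered 322, against 642 with DESeq2, 22 from SL alone and 26 to 294 without 1 library. For EB against FA they went from 4383 to 2691 (2iL alone) or 2580 (SL alone) at days 1 to 2, and from 3749 to 2043 (2iL alone) at days 5 and 7, with 2373 to 3843 without 1 library. EB against N2B27 went from 5468 to 3180 and from 8083 to 4860 (SL alone), and FA against N2B27 at days 5 and 7 from 6331 to 2975 (2iL alone). Between origins at days 5 and 7 there were 511 to 1663 without 1 library.

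Depth limits Nanos3 most, with 3 reads or fewer in 28 of 45 libraries, and the single library of SL at day 0 limits every change from it.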
